A study of Mus musculus with 9 samples.

Results

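The claudins described here are 9 members of a large gene family, Cldn3, Cldn6, Cldn7, Cldn8, Cldn9, Cldn10, Cldn11, Cldn12 and Cldn14, chosen by symbol as genes of the epithelial barriers of the cochlea. All 9 were present among the 25579 gene symbols of the table that held homozygous and treated libraries. Cldn11 and Cldn12 were also present among the 1410 symbols of the table that held wild-type and homozygous libraries. RNA came from mouse cochlear membranous labyrinth, the soft tissue that the bony shell encloses, at postnatal day 28, with 3 libraries in each of 3 groups. The first group was labelled Mpzl2 WT. The second, here called homozygous, was hMPZL2Q74X/Q74X, mice with a humanized MPZL2 gene that carries a nonsense change on both copies. The third, here called treated, was hMPZL2Q74X/Q74X that had received AAV-ie-ABE8eWQ-SpRY:sgRNA3, a viral vector with an adenine base editor and its guide, through the round window at postnatal day 2. The labels gave no injection for the other groups, so injection, vector, editor and guide cannot be told apart in the treated group.

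Claudins are membrane proteins that form the strands of tight junctions, the seals between neighbouring cells of an epithelium. Each member makes the space between cells tight or lets chosen ions through, so the mixture of claudins sets what a barrier holds back. In the cochlea these barriers keep potassium-rich endolymph apart from perilymph and from the fluid inside the stria vascularis, the tissue that generates the endocochlear potential. Claudin 11 forms the strands of strial basal cells, and loss of claudin 9, claudin 11 or claudin 14 is known to cause hearing loss in mice. Mpzl2, the gene altered in these mice, encodes a cell adhesion protein of epithelia.

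The family is recognised by a signature in the first extracellular loop, a W, then GLW, then 2 cysteines. It was found in the longest reading frame of 8 of the 9 members. Among 23 genes of the GENCODE M21 annotation of GRCm38 whose symbol is Cldn and a number alone, 21 had it. The Cldn34 genes, whose symbols carry further letters, were not searched. The exception among the members was Cldn10. The coding stretch from the first W to the last C is shown for the 2 members called in the treated libraries, Cldn3 and Cldn9, and for their neighbours Cldn4 and Cldn6, because short reads must tell these close copies apart, and for Cldn11 as the most abundant member. Capitals mark the codons of W, GLW and the 2 cysteines. The stretches lie at chr5:134986529-134986633 on the plus strand for Cldn3, chr5:134946554-134946658 on the minus strand for Cldn4, chr17:23681151-23681255 on the plus strand for Cldn6, chr17:23683458-23683562 on the minus strand for Cldn9 and chr3:31150237-31150344 on the plus strand for Cldn11.
Cldn3: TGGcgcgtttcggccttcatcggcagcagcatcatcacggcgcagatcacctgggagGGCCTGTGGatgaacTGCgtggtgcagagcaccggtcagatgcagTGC
Cldn4: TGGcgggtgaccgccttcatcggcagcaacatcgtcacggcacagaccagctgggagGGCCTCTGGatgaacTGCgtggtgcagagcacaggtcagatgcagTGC
Cldn6: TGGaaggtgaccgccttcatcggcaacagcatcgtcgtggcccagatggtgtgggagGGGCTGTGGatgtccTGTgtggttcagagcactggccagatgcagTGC
Cldn9: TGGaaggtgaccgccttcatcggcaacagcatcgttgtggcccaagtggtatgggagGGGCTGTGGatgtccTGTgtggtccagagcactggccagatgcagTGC
Cldn11: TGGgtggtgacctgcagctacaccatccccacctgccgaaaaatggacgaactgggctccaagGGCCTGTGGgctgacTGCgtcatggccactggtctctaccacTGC
Cldn6 and Cldn9 are direct neighbours among the coding genes of chromosome 17, and 100 of the 105 bases of their stretches were identical. Cldn3 and Cldn4 are direct neighbours on chromosome 5. Their stretches had 94 of 105 bases identical. Over whole transcripts the overlap was small. Of all 31-base words in the annotated transcripts, 0.407% of those of Cldn6 and 0.495% of those of Cldn9 also occurred in another gene. The share was 0.407% for Cldn3, all in Cldn4, and 0.0507% for Cldn7. Cldn8, Cldn10, Cldn11, Cldn12 and Cldn14 had 0 such words. Reads from the shared stretches cannot be assigned with certainty, so Cldn6 against Cldn9 and Cldn3 against Cldn4 carry that limit.

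Abundance was given as TPM, a share of transcripts scaled by transcript length and library total, which allows levels of different genes to be set side by side but keeps no sequencing depth, so the depth behind each value is unknown. Treated libraries 1 and 2 were nearly the same. The median absolute deviation of their log2 ratio over genes at 1 to 5 TPM was 0.0696. It was 0.869 to 1.09 between homozygous libraries, and it was 1.83 and 1.81 for treated libraries 1 and 2 against treated library 3. They were counted as 1 sample by their mean, so the treated group had 2 samples and its SD is between 2 values. The same 2 libraries stood apart in markers of forebrain neurons, 8 genes with a summed level of 1331 and 1311 TPM against 157 to 194 TPM in the homozygous libraries and 181 TPM in treated library 3. Markers of the labelled tissue were present: all 12 hair cell markers, all 12 supporting cell markers and all 10 strial marginal cell markers passed the filter on low values. Mpzl2 itself was at 33.6, 43.9 and 49.0 TPM in WT and 16.7, 23.3 and 12.5 TPM in homozygous libraries (limma adjusted p = 0.0139). In the other table it was at 17.4, 24.0 and 13.1 TPM in homozygous and 5.64, 5.62 and 16.3 TPM in treated libraries (limma adjusted p = 0.335), and RNA level does not show whether the base was edited. Reads were quantified against a mouse build, and how much RNA of the humanized gene is counted there is unknown. The Mpzl2 values of homozygous and treated libraries therefore need not give the level of that gene.

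Whether claudin RNA in the treated cochlea differed from that in the untreated homozygous cochlea was asked first. Cldn3 and Cldn9 rose in the treated libraries, by 5.93-fold and 3.41-fold in mean TPM. Cldn6, Cldn7 and Cldn8 were higher in every treated library than in any homozygous library but did not pass the test. Cldn11, the most abundant claudin of the homozygous cochlea, was low in treated libraries 1 and 2 and at its homozygous level in treated library 3. Cldn12 and Cldn14 overlapped between the groups. Of the 9 members, 8 passed the filter of 1 TPM in 3 libraries, and of these 2 were called higher and 0 lower by limma at an adjusted p under 0.05, where 3.44% of all 17102 tested genes were called higher. At an unadjusted p under 0.05 the count was 5 of 8, where 26.7% of all tested genes passed. The median log2 fold change of the 8 was 0.95, against 0.20 over all tested genes. For 5 of the 8 every treated library lay above every homozygous library, and 28% of all tested genes did so. In bulk tissue, fewer cells of a type and less RNA per cell cannot be told apart.

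**Figure D1:**
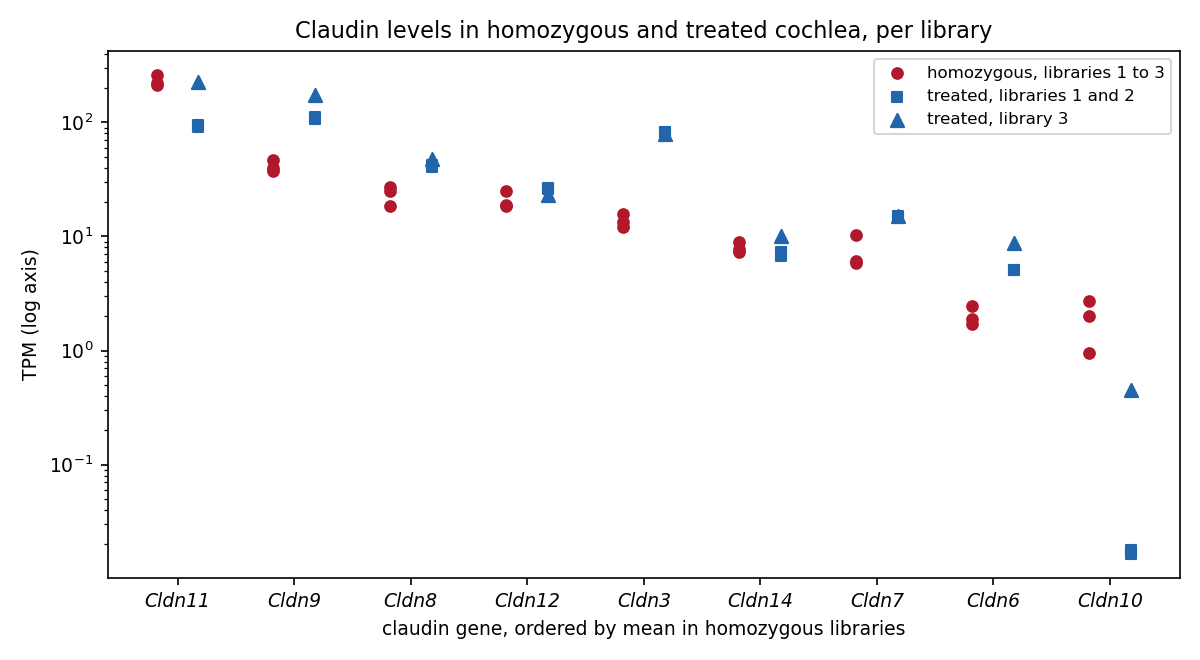
TPM of the 9 claudins on a log axis, 1 point per library, with homozygous libraries as red circles, treated libraries 1 and 2 as blue squares and treated library 3 as a blue triangle. Cldn3 stands at 12.0 to 15.6 TPM in homozygous and 79.6 to 83.2 TPM in treated libraries, while the points of Cldn12 and Cldn14 overlap.

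Cldn3 encodes a sealing claudin of many epithelia that narrows the path between cells. It was at 13.5, 15.6 and 12.0 TPM in homozygous libraries and at 83.2, 82.6 and 79.6 TPM in treated libraries. The groups were far apart, and treated library 3 lay close to the other 2 treated libraries. The means were 13.7 ± 1.81 TPM (SD, n = 3) and 81.2 ± 2.34 TPM (SD, n = 2). On the log2(TPM + 1) scale the difference was 2.49 with a standard error of 0.23 and a 95% interval of 1.95 to 3.03 (limma adjusted p = 0.00608, higher in 3 of 3 treated libraries), and it stood at rank 48 of 17102 by p. With each library left out in turn the difference stayed between 2.41 and 2.58. It passed the test in each of these fits that kept 2 treated samples. Without homozygous library 1, 2 or 3 the limma adjusted p was 0.0498, 0.0276 and 0.0414, nearer to the threshold of 0.05. The fit without treated library 3 has 1 treated sample, which is assumed to vary like the homozygous libraries.

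Cldn9 encodes a claudin of the organ of Corti whose loss in mice leads to hair cell death and deafness. Its levels were 37.6, 47.0 and 39.6 TPM in homozygous libraries and 111, 108 and 172 TPM in treated libraries. Treated library 3 was the highest, and the lowest treated library was well above the highest homozygous library. The means were 41.4 ± 4.97 TPM (SD, n = 3) and 141 ± 44.3 TPM (SD, n = 2), a log2 difference of 1.71 with a standard error of 0.25 and a 95% interval of 1.12 to 2.30 (limma adjusted p = 0.0224). The call was lost when homozygous library 1, 2 or 3 was left out (limma adjusted p = 0.132, 0.06 and 0.117). In these fits the calls over all 17102 tested genes fell from 754 to 63, 183 and 70, so the loss was not particular to Cldn9. With each library left out in turn the log2 difference of Cldn9 was 1.39 to 1.81. Cldn6, its neighbour and an early claudin of embryonic epithelia, was much less abundant, at 2.44, 1.89 and 1.72 TPM in homozygous libraries and 5.06, 5.10 and 8.78 TPM in treated libraries, with no overlap. Its log2 difference was 1.36 with an interval of 0.39 to 2.33 (limma adjusted p = 0.0992), so it did not pass. The ratio of Cldn9 to Cldn6 in TPM was 15.4, 24.9 and 23.0 in homozygous and 22.0, 21.2 and 19.6 in treated libraries, and these ranges overlapped.

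Cldn7 encodes an epithelial claudin that binds the adhesion molecule EpCAM. It was at 5.90, 10.2 and 6.04 TPM in homozygous and 15.1, 14.8 and 15.1 TPM in treated libraries. Homozygous library 2 was the highest of its group and still under all treated libraries. The log2 difference was 0.97 with an interval of 0.11 to 1.83 (limma adjusted p = 0.151). Cldn8, a claudin of tight epithelia known for limiting cation leak in the kidney, was at 18.5, 26.9 and 24.9 TPM in homozygous and 42.4, 40.6 and 48.2 TPM in treated libraries, again with no overlap. Its log2 difference was 0.92 with an interval of 0.32 to 1.52 (limma adjusted p = 0.0811). Neither gene passed the test.

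Cldn11 encodes the claudin of strial basal cells, and outside the ear it forms the tight junctions of central myelin. It was at 220, 262 and 215 TPM in homozygous libraries and at 95.1, 91.0 and 225 TPM in treated libraries. Treated libraries 1 and 2 were under all homozygous libraries, and treated library 3 was inside their range. The log2 difference was -0.67 with an interval of -1.53 to 0.19 (limma adjusted p = 0.281). The value moved with the treated library used. Without library 3 the difference was -1.30 and passed the test (limma adjusted p = 0.0212), and with it alone the difference was -0.04 (limma adjusted p = 0.905). Each of these fits has 1 treated sample, assumed to vary like the homozygous libraries, which alone give the spread. Strial basal cell markers, of which 5 were tested and none was called, summed to 640, 627 and 623 TPM in homozygous and 581, 549 and 683 TPM in treated libraries. Tjp1 and Nr2f2 were the largest terms of that sum. Treated libraries 1 and 2 were under all homozygous libraries for Sox8 and Tspan1 and within their range for Slc2a1, Tjp1 and Nr2f2. Sox8 was at 96.7, 95.6 and 65.9 TPM in homozygous and 49.4, 48.2 and 100 TPM in treated libraries. Oligodendrocyte markers, of which 2 of 11 tested, Mog and Gjc3, were called lower, summed to 2100, 857 and 2658 TPM in homozygous and 604, 579 and 508 TPM in treated libraries. Of all 17102 tested genes, 165 were called lower. No marker of either list was at 0 in every library, and their part in the result was not tested.

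Cldn14 encodes a claudin of hair cell and supporting cell junctions, and its human counterpart is a deafness gene. It was at 7.37, 7.76 and 8.92 TPM in homozygous and 7.30, 6.79 and 10 TPM in treated libraries, with overlap. The log2 difference was 0.07 with an interval of -0.75 to 0.88 (limma adjusted p = 0.921), and its sign changed with the scaling. Cldn12 encodes an unusual claudin without the tail motif by which other claudins bind ZO scaffolds. It was at 18.4, 18.9 and 25.2 TPM in homozygous and 26.4, 25.8 and 23.0 TPM in treated libraries. Treated library 3 lay below the highest homozygous library, and the log2 difference of 0.24 had an interval of -0.39 to 0.86 (limma adjusted p = 0.596). With intervals that reach 0.88 and 0.86, these data do not show that either gene was unaltered.

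Cldn10 encodes an ion-selective claudin with several isoforms. It was the least abundant member, at 1.99, 0.951 and 2.70 TPM in homozygous and 0.0178, 0.0165 and 0.452 TPM in treated libraries. Every treated library was under every homozygous library, but the gene reached 1 TPM in too few libraries to be tested. Fitted without the filter, its log2 difference was -1.20 (limma adjusted p = 0.192 over 25579 genes).

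**Figure D2:**
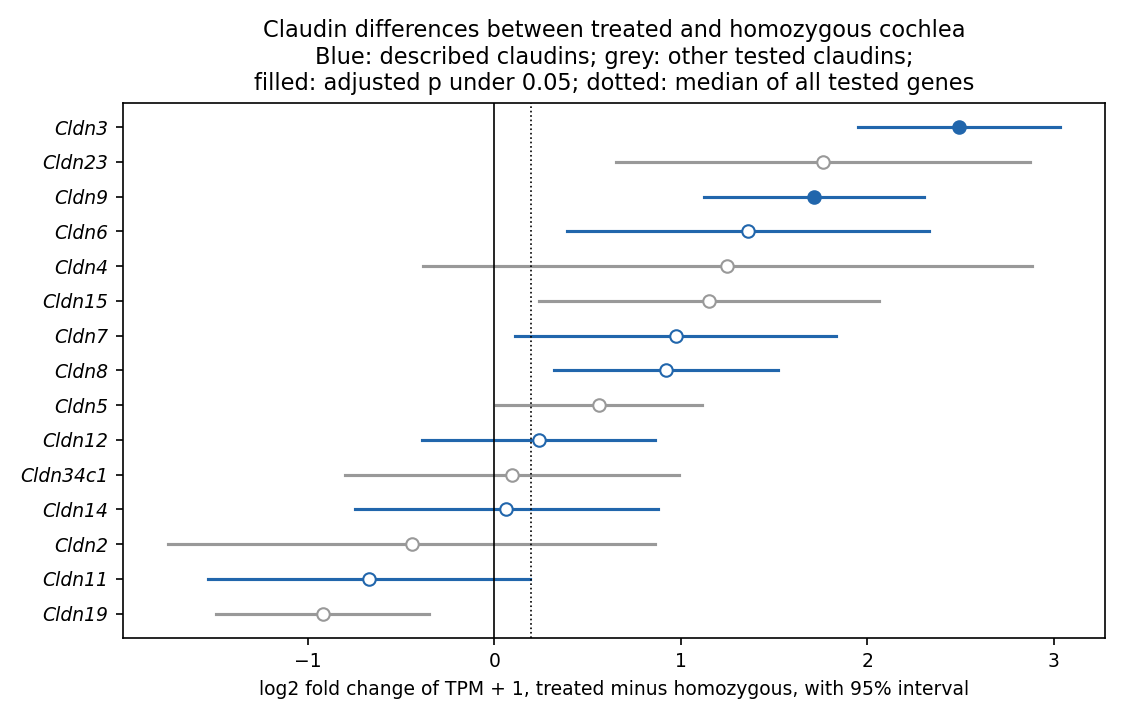
Log2 fold change of TPM + 1, treated minus homozygous, with its 95% interval (horizontal bars), for the 8 tested members (blue) and 7 other tested claudins (grey); filled points passed the test and the dotted line is the median of all tested genes, 0.20. The filled points are Cldn3 at 2.49 and Cldn9 at 1.71, and the intervals of Cldn12 and Cldn14 cross 0.

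The share of each claudin in the summed claudin RNA was also compared. The 9 members summed to 325, 391 and 336 TPM in homozygous and to 386, 375 and 582 TPM in treated libraries, with overlap. Cldn11 made up 67.5%, 67.0% and 64.0% of that sum in homozygous libraries and 24.7%, 24.3% and 38.6% in treated libraries. Cldn9 made up 11.6%, 12.0% and 11.8% in homozygous and 28.8%, 28.8% and 29.6% in treated libraries. Cldn3 made up 4.15%, 3.99% and 3.57% in homozygous and 21.6%, 22.0% and 13.7% in treated libraries. None of these 3 shares overlapped between the groups, and they are described without a test because the shares of 1 sum depend on each other. The ratio of Cldn3 to Cldn7 was 2.29, 1.53 and 1.98 in homozygous and 5.51, 5.57 and 5.28 in treated libraries. The ratio of Cldn3 to Cldn12 was 0.734, 0.825 and 0.475 in homozygous and 3.15, 3.20 and 3.46 in treated libraries.

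**Figure D3:**
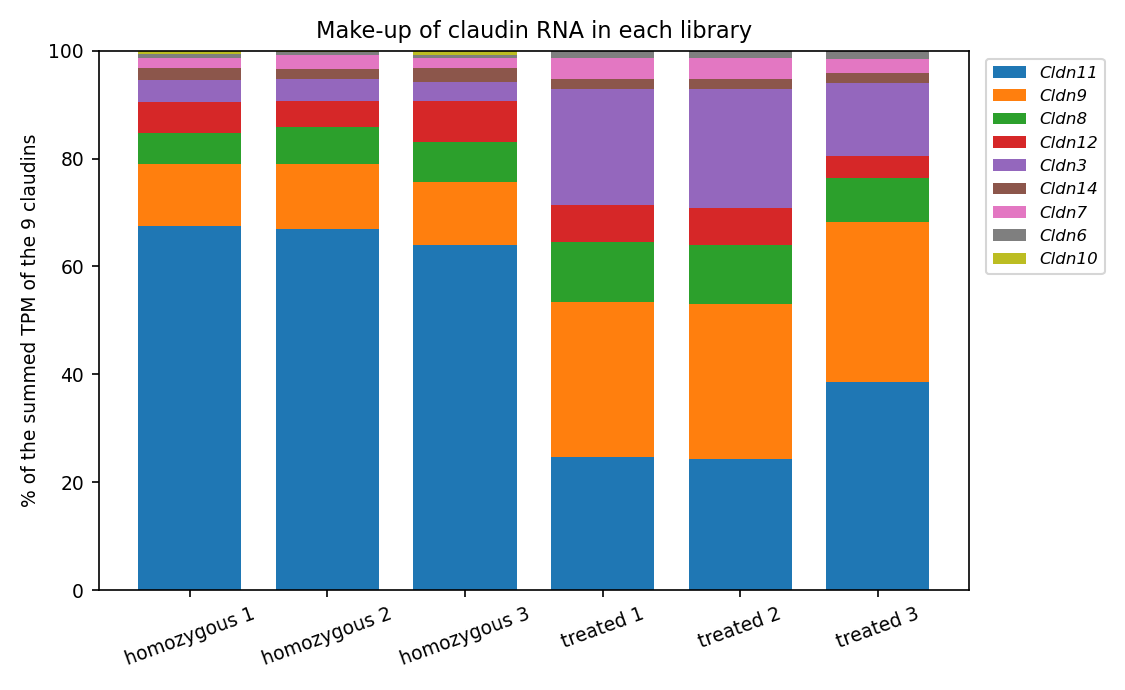
Share of each member in the summed TPM of the 9 claudins, as stacked bars for each homozygous and treated library (percent). The Cldn11 segment spans 64.0% to 67.5% in homozygous and 24.3% to 38.6% in treated libraries, and the Cldn3 and Cldn9 segments are wider in the treated libraries.

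In level per transcript length, the homozygous order by mean was Cldn11, Cldn9, Cldn8, Cldn12, Cldn3, Cldn14, Cldn7, Cldn6 and Cldn10. Neighbours in that order had ranges that did not overlap except Cldn8 with Cldn12, Cldn14 with Cldn7 and Cldn6 with Cldn10. In treated libraries the order was Cldn11, Cldn9, Cldn3, Cldn8, Cldn12, Cldn7, Cldn14, Cldn6 and Cldn10, with overlap between Cldn11 and Cldn9 and between Cldn14 and Cldn6. Cldn3 held the fifth place in every homozygous library and the third in every treated library. Cldn9 was above Cldn11 in treated libraries 1 and 2 and below it in treated library 3.

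The genes whose pattern over the 5 samples was most like that of a called member were found by the root mean square difference of centred log2(TPM + 1). Centring removes the mean, so the levels themselves can differ. For Cldn3 they were Rasal3 at 0.0377, Ltb at 0.12, Il10ra at 0.12, AU020206 at 0.13 and Ube2l6 at 0.14, of 17101 genes compared. For Cldn9 they were Dohh at 0.0687, Pbld2 at 0.0848, Rhobtb1 at 0.0976, Oas1h at 0.11 and Cachd1 at 0.11. Ltb, Pbld2 and Oas1h reached 1 TPM in treated libraries only and passed the filter through that group. These distances are descriptions with no test, since with 5 samples in 2 groups any gene with a like difference between the groups is near.

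Levels of other cell types and of an immune response are given beside those of Cldn3 and Cldn9. Leukocyte markers summed to 23.7, 29.6 and 15.5 TPM in homozygous and 144, 132 and 153 TPM in treated libraries. Of these, 5 of 8 were called higher (Ptprc, Cd3e, Cd3g, Cd8a and Trbc2), where 3.44% of all tested genes were called higher. Cd3g and Cd8a reached 1 TPM in treated libraries only. Cd3e and Trbc2 reached it in homozygous library 1 besides, and Zbp1, named below, in homozygous library 2. These genes passed the filter through the treated libraries, where they were high. Interferon response genes, of which 9 of 10 were called higher, among them Ifit3, Gbp2, Zbp1 and Ifit1, summed to 135, 182 and 159 TPM in homozygous and 2648, 2584 and 2790 TPM in treated libraries. General epithelial markers, of which 1 of 8 was called higher, summed to 343, 584 and 356 TPM in homozygous and 742, 712 and 1371 TPM in treated libraries. The called one was Krt19, a simple epithelial keratin, at 14.5, 13.6 and 17.8 TPM in homozygous and 81.7, 93.9 and 86.0 TPM in treated libraries (log2 difference 2.44, limma adjusted p = 0.00608). Relative to Cdh1, an epithelial cadherin, Cldn3 was at 0.0875, 0.0687 and 0.0765 in homozygous and 0.480, 0.499 and 0.239 in treated libraries. Relative to Epcam, another epithelial marker, it was at 0.222, 0.143 and 0.153 in homozygous and 0.465, 0.561 and 0.226 in treated libraries, and treated library 3 was level with homozygous library 1. Middle ear and airway markers, 3 of 14 tested, summed to 21.0, 78.7 and 28.4 TPM in homozygous and 14.7, 14.1 and 15.1 TPM in treated libraries, with none called, and Bpifa1 alone gave 51.2 TPM of the sum in homozygous library 2. Salivary and gland markers, 5 tested and none called, summed to 86.6, 126 and 79.8 TPM in homozygous and 147, 177 and 253 TPM in treated libraries. Prom2 alone gave 41.0, 91.1 and 42.4 TPM of that sum in homozygous and 125, 156 and 192 TPM in treated libraries. Of the 5 tested gland markers, 2 had a positive and 3 a negative difference. Mitochondrially encoded genes took 13.6%, 10.7% and 13.4% of the TPM in homozygous and 2.17%, 2.22% and 6.16% in treated libraries. Bpifa1, Muc4, Scgb1a1, Reg3g and Krt5 of the airway list and Smr2 and Pigr of the gland list were listed at 0 in all treated libraries; no marker of these lists was at 0 in every library of both groups. Their part in the rise of Cldn3 and Cldn9 was not tested. With mitochondrially encoded genes left out and TPM rescaled, the calls of Cldn3 and Cldn9 held.

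Among 17 other claudin genes, 7 were tested and 0 were called by limma, where 4.41% of all tested genes were called in either direction, and 4 of the 7 had an unadjusted p under 0.05, as 26.7% of all tested genes did. Their median log2 fold change was 0.56. Cldn15, 1 of the 4, was at 0.37, 0.43 and 0.52 TPM in homozygous and 1.84, 1.78 and 2.63 TPM in treated libraries. It passed the filter only through the group in which it was high, which limits what its p-value shows. Cldn19, a claudin of Schwann cell junctions, was at 69.4, 50.8 and 77.9 TPM in homozygous and 40.2, 31.2 and 32.3 TPM in treated libraries (log2 difference -0.92, limma adjusted p = 0.075). It was the 1 tested claudin with every treated library below every homozygous library, an arrangement held by 14.8% of tested genes. Cldn5, the claudin of endothelial barriers, was at 41.7, 50.2 and 36.6 TPM in homozygous and 56.8, 53.5 and 72.3 TPM in treated libraries (limma adjusted p = 0.181). Cldn23 and Cldn4 are named after their values were seen. Cldn23 was at 1.22, 2.48 and 1.29 TPM in homozygous and 5.52, 5.34 and 11.2 TPM in treated libraries (log2 difference 1.77, limma adjusted p = 0.0767). Cldn4 was at 1.24, 3.79 and 4.21 TPM in homozygous and 3.75, 3.63 and 16.7 TPM in treated libraries (log2 difference 1.25, limma adjusted p = 0.290), with overlap, unlike its neighbour Cldn3.

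Occludin-type membrane proteins and ZO and polarity scaffolds share the junction with claudins. The list of 26 other tight junction genes was wider than these kinds. All 26 were tested, and 1 was called higher and 0 lower, where 3.44% of all tested genes were called higher. Of the 26, 21 had a positive and 5 a negative difference, and the median log2 fold change was 0.46. The called gene was Tjp3, which encodes the scaffold ZO-3, at 8.03, 7.75 and 5.57 TPM in homozygous and 34.9, 35.5 and 32.2 TPM in treated libraries (log2 difference 2.11, limma adjusted p = 0.0223). The 2 most abundant genes of the list are named as well. Tjp1, encoding ZO-1, was at 221, 172 and 237 TPM in homozygous and 202, 188 and 114 TPM in treated libraries (log2 difference -0.48, limma adjusted p = 0.309), and Jam3 was at 339, 411 and 360 TPM in homozygous and 285, 290 and 321 TPM in treated libraries (limma adjusted p = 0.359). Among 17 regulators and partners of claudins, 16 were tested, 0 were called by limma, 9 had an unadjusted p under 0.05 (26.7% of all tested genes), and 15 had a positive difference with a median of 1.09. Cdh1 was at 154, 227 and 157 TPM in homozygous and 173, 166 and 333 TPM in treated libraries (limma adjusted p = 0.444). Spint2, an inhibitor of the proteases that cleave EpCAM, was at 70.1, 139 and 69.5 TPM in homozygous and 213, 210 and 383 TPM in treated libraries (log2 difference 1.69, limma adjusted p = 0.0592). Epcam, named as the partner of claudin 7, was at 60.9, 109 and 78.3 TPM in homozygous and 179, 147 and 353 TPM in treated libraries (log2 difference 1.56, limma adjusted p = 0.0663).

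**Figure D4:**
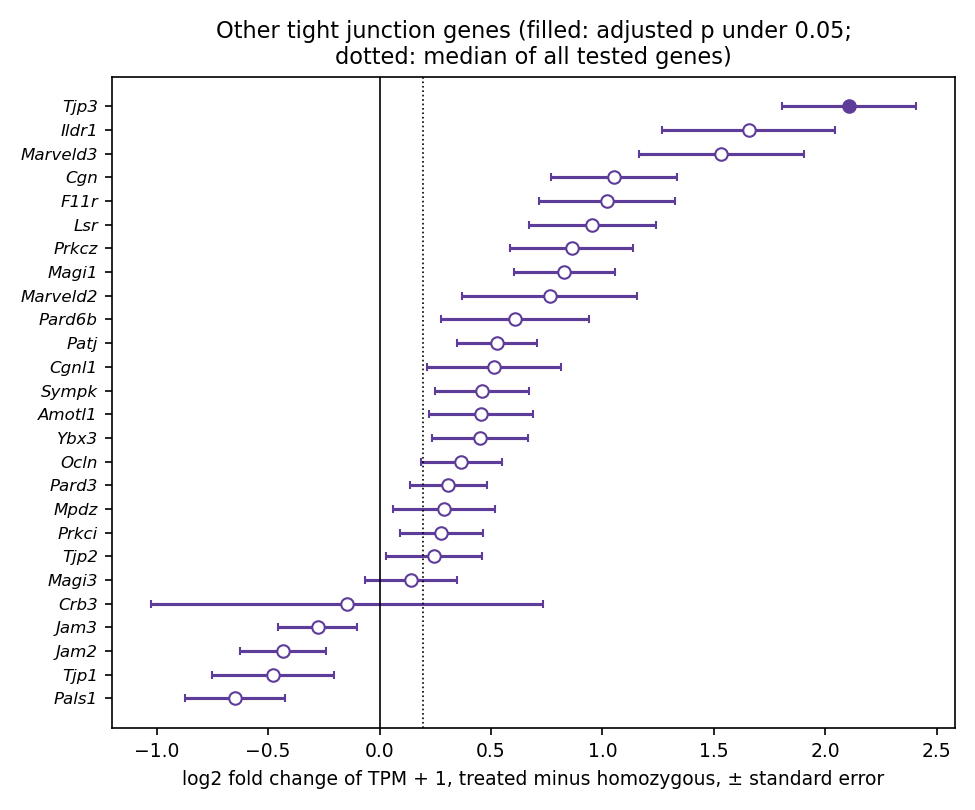
Log2 fold change of TPM + 1, treated minus homozygous, for 26 other tight junction genes, with bars of 1 standard error; the filled point passed the test and the dotted line is the median of all tested genes, 0.20. Tjp3 at 2.11 is the filled point, and 5 genes lie left of 0.

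RefSeq promoters of GRCm38.p6 were matched for 7 of the 9 members, with 13 start sites in all; Cldn8 and Cldn9 had no entry. The 250 bases before the start of Cldn3 are shown because Cldn3 was the member with the largest difference, at chr5:134985964-134986213 on the plus strand, with the one GC box (GGGCGG on either strand) in capitals.
Cldn3: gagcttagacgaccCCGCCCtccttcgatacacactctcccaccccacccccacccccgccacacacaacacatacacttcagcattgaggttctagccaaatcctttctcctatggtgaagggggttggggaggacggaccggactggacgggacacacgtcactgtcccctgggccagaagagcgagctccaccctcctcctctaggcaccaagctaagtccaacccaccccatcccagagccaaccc
The GC box begins 236 bases before the start. It was found in 6 of the 13 member promoters and in 32.7% of all 32851 promoters, which count overlapping windows of a gene separately; 2 of the 6 are overlapping Cldn12 windows that hold the same box, and the same pair shares a CCAAT. On both strands, CACCTG was found in 3 of 13 (17.2% of all), CCAAT in 7 of 13 (33.8% of all), TATAAA in 0 of 13 (12.4% of all) and AACCGGTT in 0 of 13 (0.116% of all). The interferon element core was found in 1 of 13, a promoter of Cldn7, and in 2.98% of all. A match is a description of letters, not of factor binding.

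The comparison of homozygous with WT cochlea addressed the humanized gene and its nonsense change together, which cannot be told apart here, and it covers Cldn11 and Cldn12 only. Cldn12 fell in the homozygous libraries, and Cldn11 had a higher mean without passing the test. The rows of that table appear to have been selected on these samples: an absolute log2 difference under 0.2 was found for 0 of 1348 tested genes, against 21.5% in the other table, and 33.5% were called lower. Adjustment over a selected list gives p-values that are too small, and its calls are not independent evidence of a direction.

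**Figure D5:**
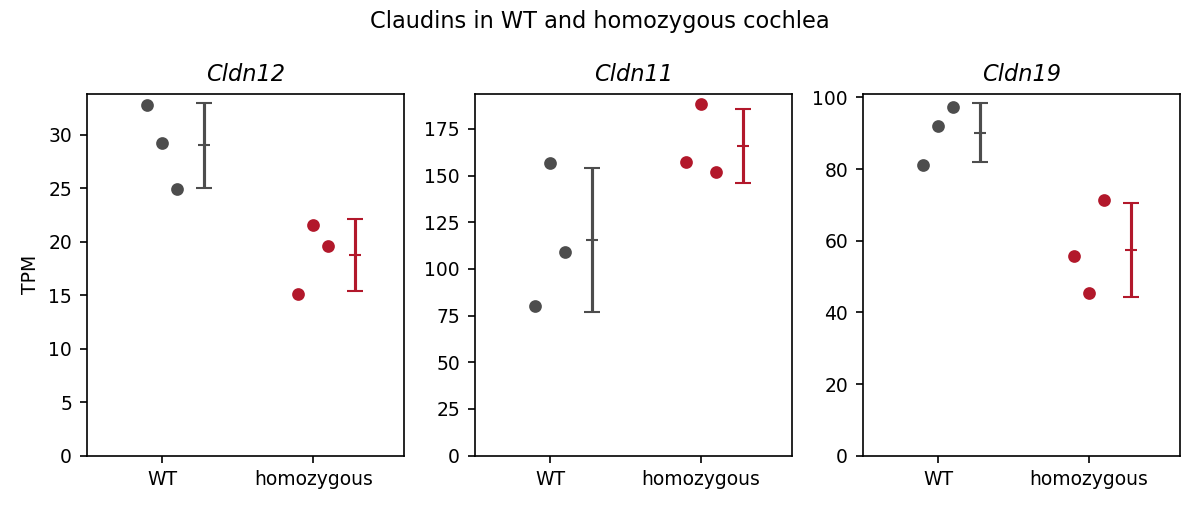
TPM of Cldn12, Cldn11 and Cldn19 in each WT and homozygous library (points), with the mean and SD as bars. The homozygous points of Cldn12 and Cldn19 lie below all WT points, while Cldn11 overlaps.

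Cldn12 was at 32.9, 29.3 and 24.9 TPM in WT and 15.1, 21.6 and 19.6 TPM in homozygous libraries, with every homozygous library below every WT library, as for 45.6% of tested genes of that table. The means were 29.0 ± 3.96 TPM and 18.8 ± 3.33 TPM (SD, n = 3 each). The log2 difference was -0.61 with a standard error of 0.19 and an interval of -1.04 to -0.18 (limma adjusted p = 0.0408). The call was lost in 4 of 6 fits with 1 library left out, those without WT library 1, 2 or 3 or homozygous library 1. The limma adjusted p was up to 0.101 and the difference -0.71 to -0.47. In these 4 fits 118, 145, 103 and 183 genes of the table were called, against 692 in the main fit. The Cldn12 call was also lost after median-of-ratios scaling, with a difference of -0.47 (limma adjusted p = 0.0555). Cldn11 was at 80.2, 157 and 109 TPM in WT and 157, 188 and 152 TPM in homozygous libraries, and WT library 2 lay within the homozygous range. The means were 115 ± 38.6 TPM and 166 ± 19.7 TPM (SD, n = 3 each). The log2 difference was 0.57 with an interval of 0.04 to 1.09 (limma adjusted p = 0.0583), and it passed without WT library 2 (0.81, adjusted p = 0.0437) and after median-of-ratios scaling (0.71, adjusted p = 0.035).

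Of the 2 other claudins in that table, Cldn19 fell from 81.2, 91.9 and 97.4 TPM in WT to 55.7, 45.4 and 71.4 TPM in homozygous libraries (log2 difference -0.66, limma adjusted p = 0.0323). Schwann cell markers, of which 5 of 6 tested were called lower, where 33.5% of the table was called lower, summed to 7475, 7747 and 7223 TPM in WT and 4432, 2712 and 5146 TPM in homozygous libraries, and their part in that fall was not tested. Cldn2, a cation-channel claudin, did not pass (0.19, 1.00 and 0.24 TPM against 4.83, 0.88 and 1.05 TPM, limma adjusted p = 0.0739). Of the other tight junction genes 2 were present. Patj, a polarity scaffold, was called higher at 34.6, 37.6 and 32.5 TPM in WT and 44.5, 51.5 and 41.9 TPM in homozygous libraries (log2 difference 0.39, limma adjusted p = 0.0499), where 17.9% of the table was called higher. Ocln, encoding occludin, was at 31.4, 31.1 and 28.9 TPM in WT and 36.6, 45.6 and 37.1 TPM in homozygous libraries (limma adjusted p = 0.0562). Both lay above all WT libraries in every homozygous library, as 31.5% of that table did.

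The homozygous libraries have other values in the 2 tables. Cldn11 was 1.40, 1.39 and 1.41 times higher in the table with treated libraries, and Cldn12 was 1.22, 0.875 and 1.29 times its value in the table with WT. The median ratio over shared genes was 1.17, 1.16 and 1.17. WT and treated levels were therefore not compared.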

How the data were processed

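RNA was extracted with TRIzol and made into SMARTER stranded total RNA libraries, per the labels' protocols, which call the libraries biological replicates without saying whether animals were pooled. The authors deposited TPM in 2 tables; reads were quantified with kallisto 0.51.0 against GRCm39 and DESeq was used, per the submitters' processing notes. TPM of repeated symbols were summed. Groups come from sample titles, because the genotype field counts upward between samples. Values of log2(TPM + 1), a scale that understates changes of low genes, were fitted with limma 3.58.1 (R 4.3.3) with 1 mean for each group and a variance trend, over 1348 and 17102 genes that reached 1 TPM in 3 libraries or more. Tests were two-sided at a Benjamini-Hochberg adjusted p of 0.05 over all tested genes, and the fit was tested on simulated data. P-values measure the spread between these samples, which may be technical. Treated libraries 1 and 2 entered as their mean.

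The members, the 19 gene lists and the tests were chosen with earlier results of these data known. Every member was named. For the claudin, junction and regulator lists, genes that passed, up to 5 in each direction, were named, or else the 2 with the highest mean. The rule was the same for marker lists, but of these only genes called in the treated comparison are named, and lists without calls are given as counts or sums. 1 called gene of the interferon list is not reported here. Tjp1, Jam3, Epcam, Cldn4, Cldn15, Cldn23, Ocln, Cldn2, Prom2, Calb2 and the genes under the filter are named besides. So are the 5 tested strial basal cell markers and marker genes listed at 0. The median of a list stands beside that of all tested genes, without a list test. Coding stretches and shared words come from GENCODE M21 and promoters from RefSeq, both on GRCm38, not the build of the values. Alternatives were pseudocounts of 0.1 and 5, filters, median-of-ratios scaling, no trend, a replicate block, separate treated libraries, treated library 3 alone, no mitochondrial genes and leaving out each library.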

Additional observations from a re-analysis of the deposited data

How the results depend on the processing

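In the treated comparison, 2 members were called. Without a filter on low values the count was 1, with all 6 libraries as separate samples it was 5 (Cldn3, Cldn6, Cldn7, Cldn8 and Cldn9), and with a library left out it was 1 to 3. Cldn3 stayed called under every alternative run that kept 2 treated samples or more, with a limma adjusted p up to 0.0498. Cldn9 lost its call without the filter (limma adjusted p = 0.0743). Of the other tight junction genes 1 was called. That count was 0 without the filter, 0 with treated library 3 alone, 10 with separate libraries and 0 to 3 with a library left out. For other claudins the count of 0 became 3 with separate libraries. The calls over all tested genes moved as well. They were 754 of 17102 in the main fit, 134 of 25579 without the filter and 3563 of 17102 with separate libraries. With homozygous library 1, 2 or 3 left out they were 63, 183 and 70. Cldn14 changed sign to -0.114 under median-of-ratios scaling, to -0.0106 with separate libraries, to -0.0519 without mitochondrially encoded genes and, with a library left out, lay between -0.161 and 0.136. In the WT comparison the count of 1 was 0 to 1 with a library left out, while the calls over that table went from 692 to between 103 and 611. The cause of these changes was not tested.

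Same-numbered libraries did not deviate together (correlations of -0.14 to 0.05 with WT and -0.15 to 0.03 with treated), so the numbers do not pair them. The replicate block in the treated comparison was fitted with all 6 libraries separate, so it changes 2 choices. It called 2 members (5 with separate libraries and no block) and 3 other tight junction genes (10 without the block). Over all tested genes it called 1485 (3563 without the block). Cldn14 stood at -0.0106 with and without the block. Against WT the block gave 1 member, Cldn11 in place of Cldn12, and 343 genes of the table in place of 692. Median-of-ratios scaling moved the median of all genes by -0.18 in the treated comparison and the share called higher from 78.1% to 62.1% of calls, and by 0.14 and from 34.8% to 69.0% in the WT comparison. TPM keeps no depth, so limits of detection are unknown.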

Other observations

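Some other claudins did not reach 1 TPM in 3 libraries and entered no main test. Cldn24 was listed at 0.70, 0.67 and 0 TPM in homozygous and at 0, 0 and 11.5 TPM in treated libraries, so 1 library alone carried it. Cldn17, a neighbour of Cldn8, was listed at 0, 0.59 and 0.43 TPM in homozygous and at 0, 0 and 2.66 TPM in treated libraries. Cldn1, an epidermal barrier claudin, stayed between 0.14 and 1.11 TPM in the homozygous and between 0.25 and 0.50 TPM in the treated libraries.

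The remaining marker lists in the treated comparison gave few calls. Strial marginal, strial intermediate, Schwann, astrocyte, choroid plexus, endothelial and forebrain neuron markers had 0 called by limma of 10, 7, 8, 8, 6, 8 and 4 tested, with 0, 1, 2, 1, 3, 2 and 2 at an unadjusted p under 0.05, where 26.7% of all tested genes passed. The 2 forebrain neuron markers at that threshold reached 1 TPM in treated libraries only. They passed the filter through the group where they were high, which limits what their p-values show. Of all 17102 tested genes, 589 were called higher and 165 lower. Hair cell markers had 1 of 12 called lower (Pcp4), but 9 of the 12 had a positive and 3 a negative difference. Their median log2 fold change was 1.02, against 0.20 over all tested genes, and 8 of 12 had an unadjusted p under 0.05. Of these 8, Pcp4 and Calb2 were lower (log2 difference -1.17 and -1.41) and the rest were higher. Supporting cell markers had 2 of 12 called higher (Otog and Lfng), with 7 positive and 5 negative differences. Bone markers had 2 of 8 called lower (Ibsp and Mepe), with all 8 differences negative. Mepe reached 1 TPM in homozygous libraries only, so it passed the filter through the group where it was high.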
